A study of Mus musculus with 18 samples.

Results

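The genes described here are 40 imprinted genes of the mouse, picked by symbol out of 24062 gene lines measured by RNA sequencing in 18 forebrain libraries. All 40 had a line. Of these, 23 are known to be expressed from the paternal copy, 15 from the maternal copy and 2 from either, depending on the tissue. They lie at 17 loci on 9 chromosomes, and 16 of them lie on chromosome 7. They were sorted by what they are known for into 14 embryonic growth genes, 18 neuronal genes and 8 others, of which 4 are long noncoding RNAs of the Dlk1-Dio3 and Kcnq1ot1 domains. The libraries came from C57BL/6 mice that carried one mutant Chd2 allele (Chd2+/-, HET) or none (WT). Chd2 encodes a chromatin remodeller. The tissues were adult hippocampus (P45) and, from the embryo (E13.5), the medial ganglionic eminence (MGE), where cortical interneurons are born, and the cortex. The groups were HET and WT hippocampus, HET and WT MGE, and HET and WT cortex, with 3 libraries each. The labels do not say whether the 3 are separate animals, so p-values measure the spread between these samples, which may be technical. In each cortex group some libraries carried Y-linked transcripts and others did not (values below), so those 3 were not all from the same animal. They do not say how the mutant allele was made.

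An imprinted gene is transcribed mainly from the copy of one parent, because its control region carries a DNA methylation mark laid down in the egg or the sperm. Imprinted genes sit in clusters in which protein-coding genes and long noncoding RNAs share one control region, and many of them set fetal growth and placental supply, while others act in neurons. The marks are kept after fertilisation by zinc-finger proteins such as Zfp57 together with Trim28 and Dnmt1. The deposited values count reads per gene and do not tell the 2 parental copies apart, so each value below is the sum of both copies, and nothing here measures imprinting itself.

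Levels are given in CPM, the counts of a gene over the total of its library after TMM scaling; column totals were 26841671 to 38802765 counts. Chd2 itself stood at 64.4, 67.5 and 66.03 CPM in HET hippocampus and 74.04, 70.7 and 78.9 CPM in WT hippocampus. In MGE it stood at 137, 136 and 144 CPM in HET and 153, 163 and 175 CPM in WT, and in cortex at 125, 124 and 124 CPM in HET and 143, 153 and 144 CPM in WT. The groups did not overlap in any of the 3 tissues, although no tissue passed the test for Chd2 (adjusted p 0.191 in hippocampus, 0.98 in MGE and 0.578 in cortex). Here and below, adjusted p is from edgeR's quasi-likelihood test with Benjamini-Hochberg adjustment over all genes, and a gene passed at 0.05. Tissue markers stood where the labels put them. The summed level of 5 MGE markers was 2193 to 2862 CPM in MGE and at most 41.5 CPM elsewhere. That of 5 cortex markers was 1407 to 2369.9 CPM in cortex, 587 to 691 CPM in hippocampus and at most 12.03 CPM in MGE. That of 5 hippocampus markers was 6032 to 7399 CPM in hippocampus and at most 1242 CPM elsewhere. HET 1 and HET 2 of the cortex stood apart from the other 4 cortex libraries: in 54.0% of the 14757 genes tested there, both lay above or both lay below all 4. Their 10 neuron markers summed to 2499 and 2385 CPM, against 3617 CPM in cortex HET 3 and 3237 to 3747 CPM in WT cortex. Their 10 progenitor markers summed to 4780 and 4549 CPM, against 3802 CPM in cortex HET 3 and 3733 to 4215 CPM in WT cortex. All 3 HET libraries of the MGE carried Y-linked transcripts (211 to 259 CPM over 4 genes) and no WT library of the MGE did (at most 0.0984 CPM), so genotype and Y-linked level cannot be told apart in that tissue.

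The 40 genes took 0.582 to 0.692% of all counts in the hippocampus libraries, 0.832 to 0.981% in the MGE libraries and 0.532 to 0.580% in the cortex libraries. The make-up of that share differed more than its size. Embryonic growth genes took 0.0138 to 0.0169% of counts in hippocampus, against 0.191 to 0.232% in MGE and 0.156 to 0.218% in cortex. Neuronal genes took 0.264 to 0.322% in hippocampus, 0.534 to 0.622% in MGE and 0.332 to 0.369% in cortex. The 8 other genes, led by the RNA Meg3, took 0.298 to 0.357% in hippocampus, 0.0818 to 0.136% in MGE and 0.0285 to 0.0482% in cortex. Hippocampus differs from both embryonic tissues in age as well as in region, and these cannot be told apart. HET hippocampus also lacked the Y-linked transcripts of HET MGE (at most 0.104 against 211 to 259 CPM), a further difference that cannot be told apart there. WT hippocampus and WT MGE both lacked them (at most 0.0984 CPM). In cortex, HET 1, HET 3 and WT 1 carried them (220, 235 and 240 CPM) and the other libraries did not (at most 0.102 CPM). In these bulk samples fewer cells of a type and less RNA per cell cannot be told apart either.

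**Figure D1:**
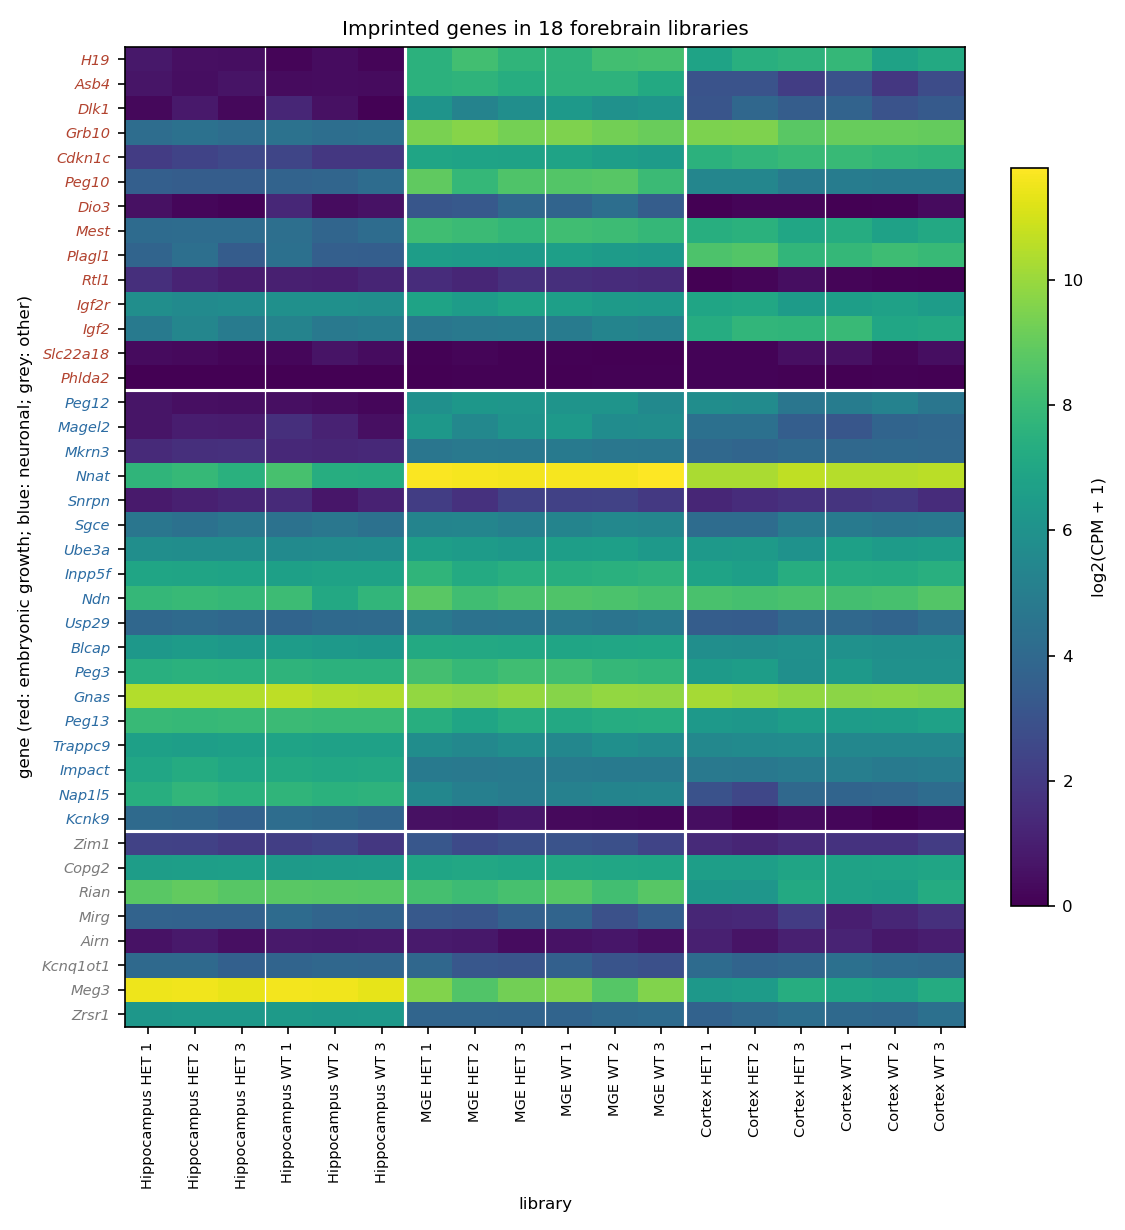
Level of each of the 40 imprinted genes in each of the 18 libraries, as log2(CPM + 1). Genes run down the page by class and, within a class, by their hippocampus over MGE difference in WT; most growth genes are darker in hippocampus than in MGE, while Meg3 reached 2593 CPM or more in every hippocampus library.

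Per kilobase (kb) of exon, the scale on which genes can be compared with each other, Nnat led both embryonic tissues. Nnat, a small membrane proteolipid of developing neurons, averaged 1753 ± 79.1 CPM per kb in HET MGE and 1786 ± 132 in WT MGE (SD, n = 3), and 757 ± 121 in HET cortex and 799 ± 25.7 in WT cortex. Second in WT MGE was H19 at 111 ± 26.3 CPM per kb, and second in WT cortex was Cdkn1c at 112 ± 8.98 CPM per kb. Both overlapped the next gene, Ndn, which was itself second in HET MGE. In hippocampus Meg3 led at 159 ± 6.59 CPM per kb in HET and 159 ± 13.6 in WT, although the annotation gives it 18089 bases of exon. Gnas, Nnat and Nap1l5 followed in both genotypes. Meg3 lay above Gnas without overlap, while Gnas overlapped Nnat and Nnat overlapped Nap1l5. Phlda2 was last in both hippocampus groups.

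The insulin-like growth factor gene Igf2, a paternally expressed fetal growth factor, and its neighbour H19, a maternally expressed noncoding RNA, share enhancers and a control region on chromosome 7. Igf2 stood at 26.8, 41.4 and 29.3 CPM in HET hippocampus and 37.2, 26.5 and 29.8 CPM in WT hippocampus. It stood at 24.1, 26.6 and 27.8 CPM in HET MGE and 28.7, 39.5 and 35.2 CPM in WT MGE. In the embryonic cortex its values were 154, 214 and 211 CPM in HET and 252, 127 and 137 CPM in WT. Every cortex library lay above every library of the other tissues, and hippocampus and MGE overlapped. In WT libraries Igf2 was lower in MGE than in cortex (log2 fold change -2.32, SE 0.27, adjusted p 1.24e-04) and lower in hippocampus than in cortex (log2 fold change -2.43, SE 0.28, adjusted p 2.29e-05), while the difference between hippocampus and MGE did not pass the test (log2 fold change -0.11, 95% interval -0.63 to 0.42, adjusted p 0.729).

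H19 ran another course. In hippocampus its values were 0.718, 0.415 and 0.348 CPM in HET and 0.104, 0.296 and 0.127 CPM in WT. It stood at 189, 296 and 207 CPM in HET MGE and 200.4, 301 and 321 CPM in WT MGE, and at 115, 171 and 193 CPM in HET cortex and 234, 111 and 143 CPM in WT cortex. Hippocampus lay far below both embryonic tissues in WT (log2 fold change -9.79, SE 0.51, adjusted p 6.76e-08 against cortex, and -10.54 against MGE with adjusted p 3.63e-08). H19 was higher in WT MGE than in WT cortex (log2 fold change 0.75, SE 0.27, adjusted p 0.0454), while Igf2 was lower. That call of H19 was lost without MGE WT 2, MGE WT 3, cortex WT 2 or cortex WT 3 (adjusted p 0.129, 0.155, 0.114 and 0.144). In HET libraries the MGE over cortex difference of H19 did not pass (log2 fold change 0.53, adjusted p 0.0893). Within cortex the same libraries were high for both genes: WT 1 led for Igf2 and H19, and HET 2 and HET 3 followed. Summed levels of 15 meninges and mesenchyme markers moved beside Igf2, at 600.1, 849 and 829 CPM in HET cortex and 736, 438 and 452 CPM in WT cortex, against 19.7 to 48.7 CPM in MGE and 38.6 to 72.97 CPM in hippocampus. None of the 15 was at 0 in a cortex or hippocampus library, and up to 3 were in an MGE library. All 15 were lower in MGE than in cortex and lower in hippocampus than in cortex in WT. The 10 choroid plexus markers summed to 14.6, 266 and 455 CPM in HET cortex and 1624, 6.35 and 1248 CPM in WT cortex. The part of these tissues in the Igf2 and H19 levels was not tested.

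H19 carries the hairpin of miR-675, and an intron of Igf2 carries that of miR-483. The mature forms are shown here because these host RNAs separated between the tissues; the miRNAs themselves were not measured in poly(A)-selected libraries. Sequences are from RefSeq (GRCm38.p6, chromosome 7, minus strand), 5′ to 3′, with the seed (bases 2 to 8) in capitals.
mmu-miR-675-5p: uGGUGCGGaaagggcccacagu
mmu-miR-675-3p: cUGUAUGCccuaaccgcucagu
mmu-miR-483-5p: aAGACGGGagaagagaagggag
mmu-miR-483-3p: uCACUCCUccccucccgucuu

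Igf2r, the maternally expressed receptor that clears Igf2, was lower in the adult. It stood at 55.1, 49.2 and 53.03 CPM in HET hippocampus and 59.4, 59.6 and 56.3 CPM in WT hippocampus, at 83.3 to 114 CPM in MGE and at 86.4 to 132 CPM in cortex. It was lower in WT hippocampus than in WT cortex (log2 fold change -0.70, SE 0.086, adjusted p 8.96e-06) and than in WT MGE (log2 fold change -0.57, adjusted p 4.98e-05). Airn, the antisense RNA that silences the paternal Igf2r copy, stayed at 0.417 to 0.761 CPM in hippocampus, 0.324 to 0.789 CPM in MGE and 0.542 to 1.23 CPM in cortex, and no tissue comparison of it passed the test in either genotype, although its WT MGE over cortex difference did without cortex WT 2 (log2 fold change -1.13, adjusted p 0.0354). Airn is largely unspliced, and poly(A) selection may not report its full amount.

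Cdkn1c, Grb10 and Mest were lower in WT hippocampus than in WT MGE and WT cortex. Cdkn1c, a maternally expressed inhibitor of the cell cycle, stood at 3.23, 4.26 and 5.04 CPM in HET hippocampus and 4.59, 2.76 and 2.73 CPM in WT hippocampus, while WT MGE had 113, 96.1 and 87.2 CPM and WT cortex 247, 225 and 211 CPM. It was lower in hippocampus than in cortex (log2 fold change -6.05, SE 0.19, adjusted p 1.57e-10) and than in MGE (log2 fold change -4.85, SE 0.19, adjusted p 6.65e-10). Grb10, an adaptor that damps insulin and growth factor signalling, stood at 17.5, 19.97 and 17.8 CPM in HET hippocampus and 21.01, 17.9 and 19.5 CPM in WT hippocampus. WT MGE had 719, 615 and 545 CPM and WT cortex 535, 524 and 514 CPM. WT hippocampus lay below WT cortex (log2 fold change -4.71, SE 0.11, adjusted p 4.62e-12). Grb10 is expressed from the maternal copy in most of the body and from the paternal copy in neurons, and these counts cannot say which copy the reads came from. Mest, a paternally expressed hydrolase-like protein linked to fetal growth, stood at 16.4, 17.1 and 16.7 CPM in HET hippocampus and 18.7, 13.4 and 17.2 CPM in WT hippocampus. WT MGE had 284, 272 and 234 CPM and WT cortex 154, 108 and 139.9 CPM. WT hippocampus lay below WT MGE (log2 fold change -3.96, SE 0.17, adjusted p 1.43e-09). Mest shares 912 exon bases, 23.1% of its own, with the end of Copg2 on the other strand, and no source used here gives the strand setting of the counting.

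Plagl1, a paternally expressed zinc-finger transcription factor that restrains growth and regulates other imprinted genes, stood at 12.96, 18.6 and 9.84 CPM in HET hippocampus and 19.4, 10.7 and 10.6 CPM in WT hippocampus. It stood at 94.1, 89.2 and 85.9 CPM in HET MGE and 98.5, 87.4 and 80.6 CPM in WT MGE, and at 358, 397 and 217 CPM in HET cortex and 230.2, 281 and 249 CPM in WT cortex. Its order was cortex over MGE over hippocampus with no overlap between tissues. The WT differences were -4.19 for hippocampus over cortex, -2.68 for hippocampus over MGE and -1.51 for MGE over cortex, on the log2 scale (adjusted p 4.20e-08, 1.02e-06 and 1.88e-04). Igf2, Plagl1 and Cdkn1c were lower in MGE than in cortex in HET as in WT, and Slc22a18 was the one other growth gene to be lower in WT. Cdkn1c gave a log2 fold change of -1.21 in WT with adjusted p 6.79e-05.

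Other growth genes were highest in the MGE. Peg10, a retrotransposon-derived gene needed for the placenta, stood at 10.8, 10.1 and 10.3 CPM in HET hippocampus and 12.6, 13.501 and 17.2 CPM in WT hippocampus. It stood at 474, 231 and 374 CPM in HET MGE and 401, 429 and 259 CPM in WT MGE, and at 40.98, 41.1 and 27.3 CPM in HET cortex and 30.3, 28.5 and 28.2 CPM in WT cortex. All MGE libraries lay above all others, with a WT difference over cortex of 3.64 on the log2 scale (SE 0.19, adjusted p 2.71e-07). Asb4, a maternally expressed ubiquitin ligase adaptor from the same domain of chromosome 6, was sharper still. WT hippocampus had 0.276, 0.296 and 0.285 CPM, while MGE had 191, 206 and 159.9 CPM in HET and 194, 195 and 142 CPM in WT, and WT cortex had 6.95, 2.78 and 5.63 CPM. The difference of WT MGE over WT cortex passed (log2 fold change 5.10, SE 0.27, adjusted p 5.71e-07). Sgce, a paternally expressed dystrophin-complex protein that starts beside Peg10, had 19.8 to 24.9 CPM in hippocampus, 34.6 to 44.6 CPM in MGE and 16.9 to 28.7 CPM in cortex. Its MGE over cortex difference in WT was smaller (log2 fold change 0.69, SE 0.10, adjusted p 1.76e-04).

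The Dlk1-Dio3 domain of chromosome 12 holds 3 paternally expressed coding genes and a row of maternally expressed noncoding RNAs, and its members split in the adult. Dlk1, a Notch-like membrane protein of progenitors, stood at 0.179, 0.762 and 0.174 CPM in HET hippocampus and 1.41, 0.4599 and 0.0634 CPM in WT hippocampus. It stood at 68.4, 38.2 and 55.96 CPM in HET MGE and 81.2, 61.1 and 70.8 CPM in WT MGE, and WT cortex had 12.7, 7.15 and 9.15 CPM. It was lower in WT hippocampus than in WT MGE (log2 fold change -6.77, SE 0.51, adjusted p 1.02e-06) and higher in WT MGE than in WT cortex (log2 fold change 2.87, SE 0.38, adjusted p 2.41e-04). Dio3, the enzyme that inactivates thyroid hormone, stood at 0.467, 0.173 and 0.0695 CPM in HET hippocampus and 1.45, 0.296 and 0.507 CPM in WT hippocampus. It stood at 7.9999, 8.87 and 14.6 CPM in HET MGE and 13.04, 18.1 and 10.03 CPM in WT MGE, and at or under 0.287 CPM in every cortex library, so in WT the adult mean lay between those of MGE and cortex. WT MGE was far above WT cortex (log2 fold change 6.92, SE 0.73, adjusted p 3.70e-05). Rtl1, a retrotransposon-derived gene that acts in placental vessels, stood at 0.869 to 1.97 CPM in hippocampus, 1.43 to 2.103 CPM in MGE and 0 to 0.362 CPM in cortex, and differed between WT MGE and WT cortex (log2 fold change 4.76, SE 0.55, adjusted p 2.94e-05). With no strand setting given, reads of Rtl1 and of the maternally expressed transcript on its other strand cannot be told apart.

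The noncoding RNAs of the same domain were not lower in the adult, unlike Dlk1. Meg3, a nuclear RNA, stood at 2919, 2961 and 2737 CPM in HET hippocampus and 3064, 2954 and 2593 CPM in WT hippocampus. It stood at 750.2, 382 and 613 CPM in HET MGE and 723, 406 and 743 CPM in WT MGE, and at 77.1, 87.2 and 163 CPM in HET cortex and 118, 108 and 151 CPM in WT cortex. The 3 tissues did not overlap, in the order hippocampus, MGE, cortex, and each WT step passed the test (log2 fold change 2.24, SE 0.23, adjusted p 7.68e-06 for hippocampus over MGE, and log2 fold change 2.31 for MGE over cortex with adjusted p 3.54e-05). Rian, which hosts small nucleolar RNAs, stood at 439, 424 and 408 CPM in WT hippocampus, 407, 296 and 427 CPM in WT MGE and 108, 100.2 and 151 CPM in WT cortex. Mirg, which hosts a miRNA cluster, stood at 16.1, 13.3 and 12.4 CPM in WT hippocampus, 13.1, 6.69 and 10.5 CPM in WT MGE and 0.993, 1.404 and 2.15 CPM in WT cortex. Both were higher in WT hippocampus than in WT cortex (1.86 for Rian and 3.25 for Mirg on the log2 scale, adjusted p 1.79e-06 and 1.19e-06). Against WT MGE neither passed (adjusted p 0.257 and 0.103), although Rian did in HET libraries (log2 fold change 0.57, adjusted p 0.0415). That call was lost without any 1 of the 6 HET libraries compared (adjusted p 0.0707 to 0.13), and Mirg passed without MGE WT 1 (log2 fold change 0.71, adjusted p 0.0362). All 6 genes of the domain were higher in MGE than in cortex, in HET libraries (where 14.8% of all genes were) and in WT libraries (where 24.6% were).

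**Figure D2:**
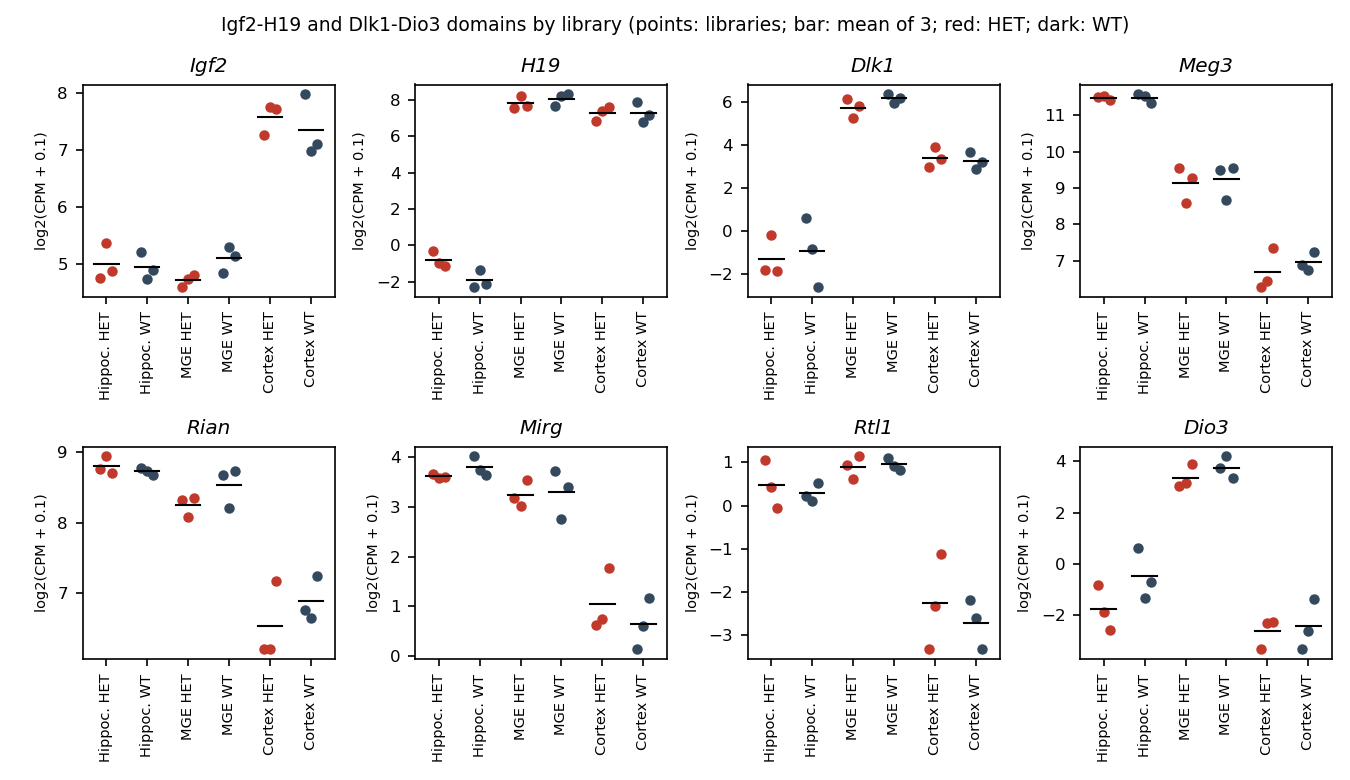
Levels of the 2 genes of the Igf2-H19 domain and the 6 genes of the Dlk1-Dio3 domain as log2(CPM + 0.1), with 1 point per library and a bar at the mean of 3. In hippocampus H19 and Dlk1 sit at the bottom of their panels and Meg3 sits at the top. Rian and Mirg in hippocampus lie above cortex and overlap MGE, and Igf2 is high in cortex alone.

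The RefSeq table places 26 mature miRNA forms within the annotated bounds of Mirg on its own strand, 6 within those of Rian, 3 within those of Meg3, and 11 on the strand opposite Rtl1. Of the mature forms on the strand of their host, a single pair shared a seed, miR-453 and miR-496a-5p, both in Mirg. Shown are miR-770-5p from Meg3 and miR-134-5p and miR-410-3p from Mirg, since both host RNAs were higher in MGE than in cortex. These Mirg forms are not the pair that shares a seed. Also shown is miR-127-3p from the strand opposite Rtl1, whose own host transcript is not analysed here. All sequences are from RefSeq (GRCm38.p6, chromosome 12, plus strand), with the seed in capitals.
mmu-miR-770-5p: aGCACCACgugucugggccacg
mmu-miR-134-5p: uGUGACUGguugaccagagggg
mmu-miR-410-3p: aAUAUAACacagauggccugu
mmu-miR-127-3p: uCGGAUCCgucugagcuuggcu

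In the Kcnq1ot1 domain of chromosome 7, the paternal noncoding RNA Kcnq1ot1, which silences its neighbours in cis, stood at 11.3 to 15.6 CPM in hippocampus, 6.28 to 14.3 CPM in MGE and 13.1 to 19.2 CPM in cortex, a narrow range beside that of its neighbour Cdkn1c. It was higher in WT hippocampus than in WT MGE (log2 fold change 0.75, SE 0.19, adjusted p 0.00355) and lower in WT MGE than in WT cortex (log2 fold change -1.02, adjusted p 0.00108). Neither difference passed in HET libraries (adjusted p 0.0782 and 0.1), although both did without MGE HET 1 (adjusted p 0.00213 and 0.00603). Of 13 alternatives in HET, 9 and 11 left these differences short of the threshold, and they passed in the rest. The maternally expressed transporter gene Slc22a18 had 32 counts over the 3 WT hippocampus libraries and 2 over the 3 WT MGE libraries, a ratio of 17.8 with an exact 95% interval of 4.54 to 153 that covers counting error only. Phlda2, which restrains placental growth, had no count in any hippocampus library, which allows up to 0.0952 to 0.108 CPM (3 counts), and at most 0.096 CPM in any other library. It was too low for every test.

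Neuronal imprinted genes were not all higher in the adult tissue. The Prader-Willi and Angelman domain of chromosome 7 is named for the human syndromes in which its counterpart is lost. In it all 6 genes were lower in WT hippocampus than in WT cortex (where 40.7% of all genes were) and than in WT MGE (where 40.1% were). All 6 were so in HET libraries too, where 40.2 and 39.5% of all genes were. Peg12, a paternally expressed relative of the Frat regulators of Wnt signalling, stood at 0.574, 0.415 and 0.348 CPM in HET hippocampus and 0.414, 0.263 and 0.159 CPM in WT hippocampus. WT MGE had 67.3, 68.1 and 47.7 CPM and WT cortex 30.1, 36.3 and 23.6 CPM. WT hippocampus lay below WT cortex (log2 fold change -6.71, SE 0.30, adjusted p 2.76e-09). Magel2, a ubiquitin ligase partner of endosomal sorting, stood at 0.574, 0.935 and 0.869 CPM in HET hippocampus and 1.97, 1.22 and 0.412 CPM in WT hippocampus. WT MGE had 79.4, 52.4 and 54.8 CPM and WT cortex 7.97, 12.8 and 14.4 CPM. WT hippocampus lay below WT MGE (log2 fold change -5.67, SE 0.42, adjusted p 7.21e-07). Mkrn3, a ring-finger protein linked to the timing of puberty, stood at 1.62, 2.01 and 2.12 CPM in HET hippocampus and 1.59, 1.41 and 1.59 CPM in WT hippocampus. WT MGE had 27.4, 24.4 and 24.1 CPM and WT cortex 14.9, 15.5 and 14.7 CPM. WT hippocampus lay below WT cortex (log2 fold change -3.26, SE 0.13, adjusted p 1.80e-10).

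Ndn, the neighbour of Magel2 and a member of the same protein family, kept most of its level. It stood at 229, 246 and 232 CPM in HET hippocampus and 270.0, 136 and 213 CPM in WT hippocampus, against 367, 349 and 318 CPM in WT MGE and 306, 332 and 393 CPM in WT cortex. Its WT hippocampus over cortex difference was -0.70 (SE 0.21, adjusted p 0.0113), against -6.71 for Peg12, -3.26 for Magel2 and -3.26 for Mkrn3. Ube3a, the ubiquitin ligase of Angelman syndrome whose paternal copy is silent in neurons, stood at 48.7 to 55.2 CPM in hippocampus, 77.2 to 99.995 CPM in MGE and 63.3 to 103 CPM in cortex (log2 fold change -0.85, SE 0.09, adjusted p 2.17e-06 for hippocampus over cortex in WT). Snrpn, a splicing protein gene whose start lies at the control region, was counted at only 0.657 to 1.69 CPM in hippocampus, 2.24 to 3.97 CPM in MGE and 1.44 to 2.74 CPM in cortex. It shares 216 exon bases with Snurf on the same strand, and reads there may have been dropped by the counting, so the level of Snrpn is uncertain. The Snurf line held 1 count in MGE WT 1 and no count in any other library. Its call against cortex was lost in WT without cortex WT 2 or hippocampus WT 2 (adjusted p 0.063 and 0.0779), and in HET without cortex HET 2, cortex HET 3, hippocampus HET 1 or hippocampus HET 2 (adjusted p 0.0637, 0.1, 0.121 and 0.08).

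Nnat was lower in the adult as well. It stood at 207, 239 and 181 CPM in HET hippocampus and 332, 161 and 156 CPM in WT hippocampus. WT MGE had 3132, 3123 and 3545 CPM and WT cortex 1430.4, 1439.7 and 1516 CPM. WT hippocampus lay below WT MGE (log2 fold change -3.88, SE 0.29, adjusted p 8.42e-07), and WT MGE above WT cortex (log2 fold change 1.16, adjusted p 0.005). Hippocampus WT 1 was the highest library of its group for Nnat, Dio3, Magel2 and Dlk1. It was also the highest for further members, such as Ndn, Plagl1, Cdkn1c and Igf2, but not for H19 or Igf2r. Blcap, a small membrane protein gene that contains Nnat in an intron, stood at 91.3, 79.4 and 75.2 CPM in WT hippocampus, 121, 125 and 128 CPM in WT MGE and 61.3, 57.5 and 57.7 CPM in WT cortex. Like Nnat it was lower in WT hippocampus than in WT MGE and higher in WT MGE than in WT cortex (log2 fold changes -0.57 and 1.08, adjusted p 2.74e-05 and 8.28e-07). Unlike Nnat, which was lower in WT hippocampus than in WT cortex (log2 fold change -2.72, SE 0.27, adjusted p 8.85e-06), Blcap was higher (log2 fold change 0.51, SE 0.08, adjusted p 7.44e-05).

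In the Peg3 domain of chromosome 7, Peg3, a paternally expressed zinc-finger protein tied to maternal care and growth, stood at 173, 182 and 179 CPM in HET hippocampus and 206, 189.5 and 187 CPM in WT hippocampus. It stood at 308, 239 and 284 CPM in HET MGE and 285, 233 and 215 CPM in WT MGE, and at 84.1, 94.9 and 58.03 CPM in HET cortex and 78.9, 62.2 and 62.2 CPM in WT cortex. Every MGE library lay above every hippocampus library, and every hippocampus library above every cortex library (log2 fold change 1.85, SE 0.12, adjusted p 4.89e-07 for MGE over cortex in WT, and -0.30 with adjusted p 0.0361 for hippocampus over MGE). The hippocampus over MGE call of Peg3 was lost without MGE WT 1, hippocampus WT 2 or hippocampus WT 3 (log2 fold changes -0.19, -0.30 and -0.28, adjusted p 0.124, 0.0794 and 0.0875). Usp29, a deubiquitinase gene that shares a divergent promoter with Peg3, ran from 13.01 to 16.03 CPM in hippocampus to 20.7 to 26.1 CPM in MGE and 9.92 to 17.5 CPM in cortex. Zim1, the maternally expressed zinc-finger gene of the domain, stood at 2.79 to 4.17 CPM, 4.43 to 8.08 CPM and 1.35 to 3.26 CPM in the same order. All 3 genes were higher in MGE than in cortex in both genotypes, where 24.6% of all genes were in WT and 14.8% in HET.

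Unlike these, 6 neuronal genes were higher in WT hippocampus than in both embryonic tissues (40.2% of all genes were higher than in cortex and 42.2% than in MGE). The same 6 were so in HET libraries: Kcnk9, Nap1l5, Impact, Peg13, Trappc9 and Gnas. Nap1l5, a nucleosome assembly protein relative, stood at 169, 213 and 187 CPM in HET hippocampus and 209, 182 and 198 CPM in WT hippocampus. WT MGE had 34.8, 39.4 and 40.1 CPM and WT cortex 13.03, 13.8 and 16.9 CPM. WT hippocampus lay above WT cortex (log2 fold change 3.79, SE 0.11, adjusted p 1.67e-11). Impact, which blocks the activation of the stress kinase Gcn2, stood at 124, 151 and 125 CPM in HET hippocampus and 143, 134 and 139 CPM in WT hippocampus. WT MGE had 29.4, 27.6 and 27.3 CPM and WT cortex 31.5, 27.7 and 29.96 CPM. WT hippocampus lay above WT MGE (log2 fold change 2.34, SE 0.073, adjusted p 2.71e-11). Zrsr1, a splicing factor copy among the other genes, took almost the same course, at 73.8 to 85.7 CPM in hippocampus, 12.9 to 16.6 CPM in MGE and 12.03 to 19.3 CPM in cortex (log2 fold change 2.49, SE 0.12, adjusted p 1.38e-09 for WT hippocampus over MGE).

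Kcnk9, a maternally expressed potassium leak channel, stood at 15.8, 14.7 and 12.1 CPM in HET hippocampus and 17.7, 16.1 and 13.6 CPM in WT hippocampus, while no embryonic library had more than 0.647 CPM. The WT hippocampus over cortex difference was the highest of all members (log2 fold change 7.32, SE 0.40, adjusted p 4.68e-09). Its neighbours on chromosome 15 were higher in hippocampus by less. The paternal noncoding RNA Peg13, which lies in an intron of Trappc9, stood at 238 to 258 CPM in hippocampus, 121 to 167 CPM in MGE and 75.7 to 105 CPM in cortex, and Trappc9, a vesicle tethering protein, at 95.8 to 115 CPM, 43.4 to 57.3 CPM and 42.3 to 50.6 CPM. Gnas, the G protein subunit that couples receptors to cyclic AMP, stood at 1390.4, 1363 and 1388 CPM in HET hippocampus and 1550.5, 1363 and 1354 CPM in WT hippocampus. WT MGE had 802, 951 and 906 CPM and WT cortex 856, 882 and 840.3 CPM. WT hippocampus lay above WT cortex (log2 fold change 0.76, SE 0.081, adjusted p 2.30e-06). Its line sums transcripts of several promoters with different imprints, and 8.83% of its exon bases overlap the antisense gene Nespas. Inpp5f, a lipid phosphatase, and Copg2, a coat protein, moved by 0.72 or less on the log2 scale between any pair of WT tissues.

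**Figure D3:**
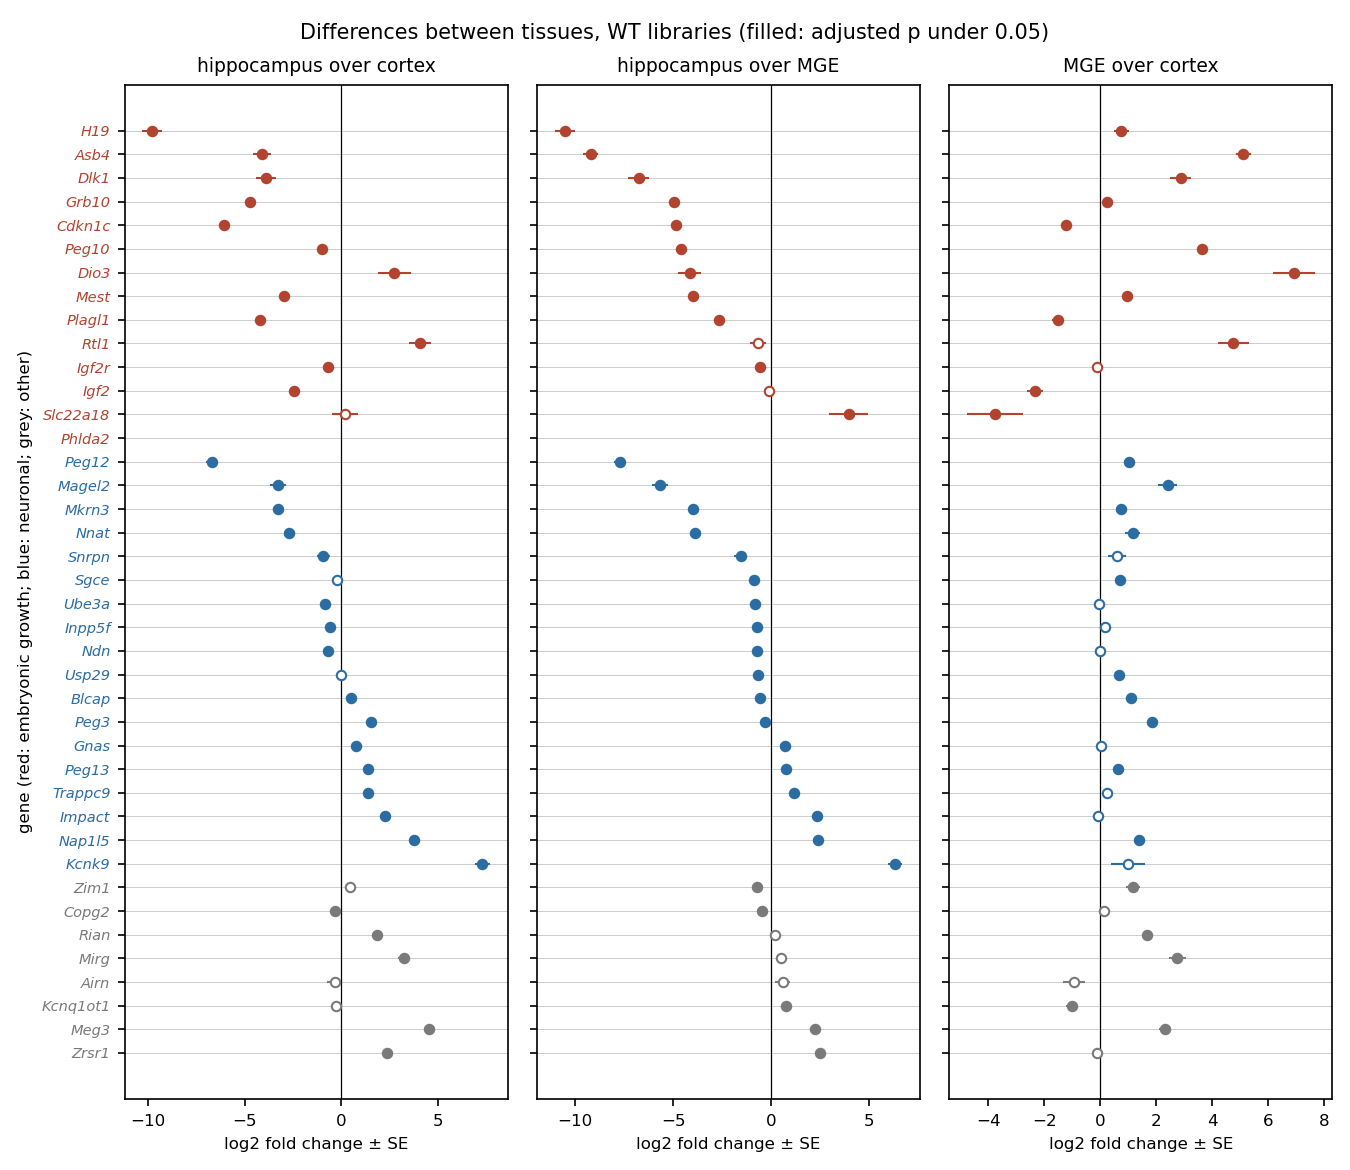
Log2 fold changes ± SE of 39 tested imprinted genes between tissues in WT libraries (hippocampus over cortex, hippocampus over MGE, MGE over cortex); filled points passed the test. Red growth genes lie mostly left of 0 in the hippocampus panels (medians -2.99 and -4.16), blue neuronal genes lie on both sides, and most points of the MGE over cortex panel lie right of 0.

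In all, 33 of 39 tested members passed between WT hippocampus and WT cortex, where 80.9% of all 15688 genes did, and 34 between WT hippocampus and WT MGE, where 82.3% did. Over the growth class, 10 of 13 tested growth genes were lower and 2 higher in WT hippocampus than in WT cortex, with a median log2 fold change of -2.99 against -0.013 over all genes tested. Of all genes, 40.7% were lower and 40.2% higher in that comparison. Against WT MGE 10 of 13 were lower and 1 higher (median -4.16; 40.1% of all genes lower and 42.2% higher). Both genes that were higher than in cortex, Rtl1 and Dio3, belong to the Dlk1-Dio3 domain and stood at most at 1.97 CPM in hippocampus. The Dio3 call was lost without cortex WT 2 or hippocampus WT 1 (adjusted p 0.0502 and 0.0626). Neuronal genes split evenly against cortex, with 8 of 18 higher and 8 lower (median -0.098), and against MGE 6 were higher and 12 lower (median -0.68). Against cortex these shares are near those of all genes, and the median size of the difference was 1.40 for the class and 1.12 over all genes. At least 4-fold lower in WT hippocampus were 12 of 39 members against cortex, where 10.5% of all genes were, and 13 against MGE, where 10.3% were. At least 4-fold higher were 8 against cortex and 6 against MGE, where 17.2 and 20% of all genes were.

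Between the embryonic tissues, of the same age, 22 of 39 tested members (56.4%) were higher in WT MGE than in WT cortex and 5 (12.8%) lower, while 24.6% of all genes were higher, 25.7% lower and 50.4% either. The median log2 fold change of the members was 0.69, against -0.011 over all genes, and other scalings gave 20 to 23 members higher and 5 or 6 lower. Of the neuronal class 10 of 18 were higher and 0 lower, at an unadjusted p under 0.05 in 12, where 56.2% of all genes were. The growth class had 8 higher and 4 lower of 13, and among the higher the calls of H19 and Grb10 were each lost without 1 of several libraries. Past the test, 8 members were at least 4-fold higher in MGE, where 2.26% of all genes were: Dio3, Asb4, Rtl1, Peg10, Dlk1, Mirg, Magel2 and Meg3. At least 4-fold lower were Igf2 and Slc22a18, where 5.39% of all genes were. Slc22a18 had 2 counts in all WT MGE libraries, so its value depends on few reads. The 3 comparisons of a genotype share libraries, so a gene high in MGE enters 2 of them.

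HET libraries, which share none with WT, gave much the same calls. Between hippocampus and cortex 31 of 38 tested members passed in HET (14 higher and 17 lower, where 38.6 and 40.2% of all genes were, and 78.8% either). Of these, 30 passed in the same direction in WT, 96.8% of the HET calls and 90.9% of the 33 WT calls. Between hippocampus and MGE 33 passed in HET (9 higher and 24 lower, where 40.6 and 39.5% of all genes were, and 80.1% either), and 32 passed in both, 97.0% of the 33 HET calls and 94.1% of the 34 WT calls. Between MGE and cortex 23 passed in HET (20 higher and 3 lower, where 14.8 and 18.7% of all genes were, and 33.5% either). There 22 passed in both, 95.7% of the HET calls and 81.5% of the 27 WT calls. No member passed in opposite directions. Across genes the log2 fold changes of the 2 genotypes correlated with Pearson's r of 0.985, 0.990 and 0.978 over 38 genes, which are not independent replicates. The shared calls and r are given without their values over all genes, so they do not set the members apart. The calls made in one genotype alone between MGE and cortex were Kcnk9 in HET and Peg12, H19, Kcnq1ot1, Slc22a18 and Grb10 in WT, and the difference between the genotypes did not pass for any of them. Kcnk9 lost its call without MGE HET 1, MGE HET 3, cortex HET 2 or cortex HET 3 (adjusted p 0.069, 0.154, 0.126 and 0.0727). Grb10 lost its call without MGE WT 1, MGE WT 2 or any 1 WT cortex library (adjusted p 0.0763 to 0.198). Peg12 did not pass in HET under 6 of 13 alternatives and passed under the rest. Among these were the fits without cortex HET 1 or cortex HET 3 (adjusted p 0.0321 and 0.0175). Kcnk9 in HET and Grb10 in WT each kept the call under 6 of 13 alternatives. Leaving out 1 HET library at a time gave 22 to 27 HET calls there.

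**Figure D4:**
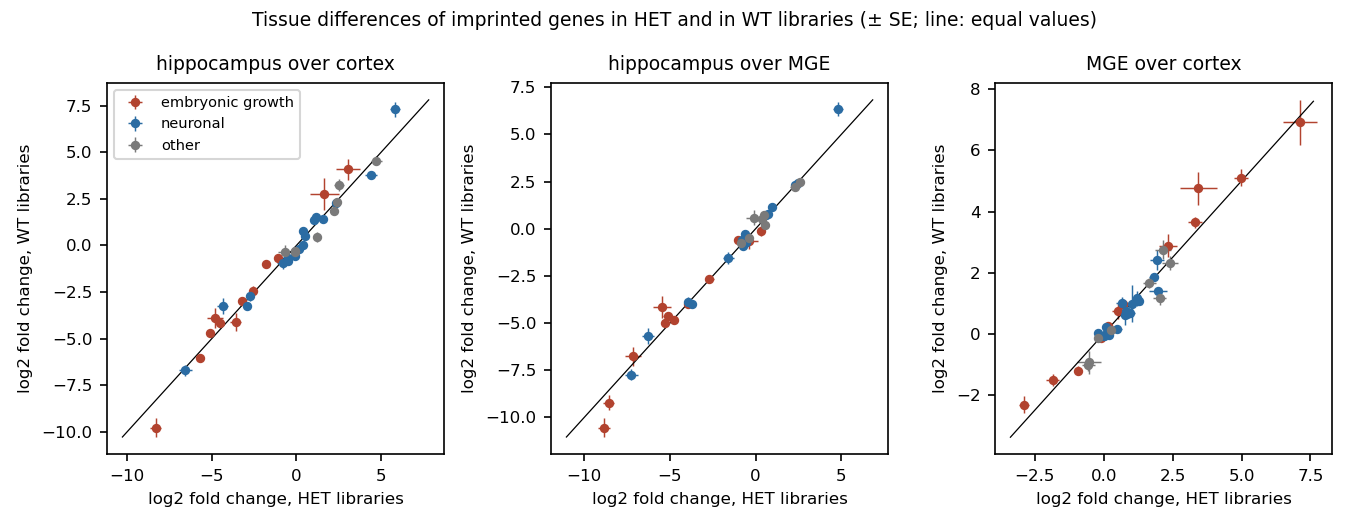
Log2 fold changes ± SE between tissues in HET libraries (horizontal axis) against WT libraries (vertical axis) for the 38 imprinted genes tested in both; the line marks equal values. Points follow the line in all 3 panels (r of 0.978 to 0.990 across genes).

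A list of 29 genes was chosen as neighbours of the members outside imprinting, and 27 had a line. Neither their distance to a member nor their imprinting is shown here. Of 24 tested, 8 were higher and 7 lower in WT MGE than in WT cortex, with a median of -0.057. Of all genes, 24.6% were higher and 25.7% lower, and of the 39 imprinted genes 22 were higher and 5 lower. The neighbours with the lowest p were Hrh3, a histamine receptor (log2 fold change 3.31, SE 0.33, adjusted p 3.17e-05), Pdk4, a kinase of pyruvate metabolism next to Asb4 (log2 fold change 3.06), and Tial1, an RNA-binding protein (0.50). Against WT cortex, 12 neighbours were higher and 10 lower in WT hippocampus (median 0.23), where 40.2% of all genes were higher and 40.7% lower. Mas1, a receptor gene beside Igf2r that overlaps Airn on the other strand, led them (log2 fold change 8.87, SE 0.30, adjusted p 5.07e-11).

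Most genes that write, read or protect imprints were lower in the adult, as were 40.7% of all genes against WT cortex and 40.1% against WT MGE. Of 24 tested, 19 were lower and 2 higher in WT hippocampus than in WT cortex (median log2 fold change -1.33), and 22 were lower and 1 higher than in WT MGE (median -1.79). The lowest p values against cortex belonged to Ezh2, the methyltransferase of Polycomb (log2 fold change -5.22, SE 0.13, adjusted p 6.46e-12), Uhrf1, which brings Dnmt1 to replicated DNA (log2 fold change -5.97, SE 0.16, adjusted p 1.71e-11), and Rif1, a replication timing factor (log2 fold change -2.33, SE 0.075, adjusted p 3.92e-11). Zfp57, named here after its values were seen because its motif is searched below, was lower too (log2 fold change -3.98, SE 0.14, adjusted p 1.46e-10). Progenitor markers, whose 10 genes summed to 233 to 251 CPM in hippocampus and 3733 to 6149 CPM in the embryonic tissues, moved with this list; their part was not tested. In WT MGE against WT cortex 20 of 24 were higher and 0 lower (median 0.46), with 21 at an unadjusted p under 0.05, where 24.6% of all genes were higher and 56.2% had such a p. In HET libraries 9 of 24 were higher and 0 lower, with 14 at an unadjusted p under 0.05, where 14.8% of all genes were higher and 44.4% had such a p.

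The insulin-like growth factor axis holds the ligands, receptors and binding proteins around Igf2. Of its 19 tested genes, 7 were higher and 9 lower in WT hippocampus than in WT cortex (median -0.41), where 40.2% of all genes were higher and 40.7% lower. In WT MGE against WT cortex 5 were higher and 8 lower (median -0.26), where 24.6% of all genes were higher and 25.7% lower. The lowest p values against cortex belonged to Igf2bp3, an RNA-binding protein that holds Igf2 mRNA (log2 fold change -3.73, SE 0.10, adjusted p 1.20e-11), and to the binding proteins Igfbp2 (log2 fold change -3.86, SE 0.12, adjusted p 4.23e-11) and Igfbpl1 (log2 fold change -6.05, SE 0.17, adjusted p 5.64e-11). Igfbp3 was the axis gene with the lowest p between WT MGE and WT cortex (log2 fold change -2.89, SE 0.18, adjusted p 1.93e-07), and so lower in MGE, as Igf2 was.

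RefSeq promoters (GRCm38.p6, 250 bases before to 50 after a start) were matched for 31 members, in 45 windows. As a description, they held a median of 13 CpG per window against 7 over all 32851 windows, with a median observed over expected ratio of 0.602 against 0.384. The 6-letter core TGCCGC that Zfp57 binds when methylated was in 24.4% of member windows, on either strand, against 11.6% of all windows. The 10 genes that held it were Copg2, Grb10, Igf2, Meg3, Mest, Nap1l5, Nnat, Plagl1, Snrpn and Zim1. They include genes that were lower in the adult than in both embryonic tissues, such as Plagl1, Mest and Grb10, and genes that were higher, such as Nap1l5 and Meg3. GGGGCCCC, a core bound by Plagl1, was in 4.44% of member windows against 1.08% of all windows, in the overlapping windows of Peg3 and Usp29. A match is a description of letters, not a bound site.

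The 250 bases before the start are printed for Plagl1 (GRCm38.p6, chr10:13090582-13090831, plus strand) and Mest (chr6:30737800-30738049, plus strand), which were lower in the adult, and for Nap1l5 (chr6:58907127-58907376, minus strand), which was higher, because the core is found before the start of all 3. TGCCGC, or its reverse complement GCGGCA, is in capitals.
Plagl1: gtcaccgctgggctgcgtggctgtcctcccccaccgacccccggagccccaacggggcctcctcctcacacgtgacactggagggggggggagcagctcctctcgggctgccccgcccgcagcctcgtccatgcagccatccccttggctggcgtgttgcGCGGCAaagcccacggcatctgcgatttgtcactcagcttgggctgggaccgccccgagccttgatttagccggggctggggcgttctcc
Mest: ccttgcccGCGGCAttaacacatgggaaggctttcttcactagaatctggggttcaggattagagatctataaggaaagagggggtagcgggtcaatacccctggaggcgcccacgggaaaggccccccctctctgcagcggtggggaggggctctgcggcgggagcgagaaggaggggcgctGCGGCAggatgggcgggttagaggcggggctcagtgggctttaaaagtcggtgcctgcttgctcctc
Nap1l5: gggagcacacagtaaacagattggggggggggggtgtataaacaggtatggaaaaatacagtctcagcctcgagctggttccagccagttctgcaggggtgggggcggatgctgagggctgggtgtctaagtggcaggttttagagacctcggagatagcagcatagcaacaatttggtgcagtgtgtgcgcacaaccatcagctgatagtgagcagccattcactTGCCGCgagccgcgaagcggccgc

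The study set Chd2+/- tissue against WT tissue, and no imprinted gene passed the test in any tissue. In MGE 0 of 38 tested members passed, where 0.0479% of all 14624 genes did, and 2 (5.26%) had an unadjusted p under 0.05, where 4.51% of all genes did. In cortex 0 of 36 passed, where 0% of all genes did, and 2 (5.56%) had an unadjusted p under 0.05 (7.89% of all genes). In hippocampus 0 of 38 passed, where 1.07% of all 15283 genes did, and 6 (15.8%) had an unadjusted p under 0.05 (15.6% of all genes). DESeq2 called 0, 0 and 1 member in the 3 tissues. Groups that did not overlap numbered 3 members in MGE, 4 in cortex and 11 in hippocampus, or 7.89, 11.1 and 28.9% of those tested, where 9.70, 11.1 and 20.8% of all genes did not overlap. The data bound most effects: the 95% interval of the HET over WT difference lay within a 2-fold change in either direction for 36 of 38 members in MGE, 29 of 36 in cortex and 31 of 38 in hippocampus.

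In hippocampus the member nearest the threshold was Peg10. Its values were 10.8, 10.1 and 10.3 CPM in HET and 12.6, 13.501 and 17.2 CPM in WT, so every HET library lay below every WT library (log2 fold change -0.47, SE 0.12, adjusted p 0.0944). It passed in DESeq2 (adjusted p 0.0344) and without hippocampus WT 1 (log2 fold change -0.55, adjusted p 0.0423). H19 had 0.718, 0.415 and 0.348 CPM in HET and 0.104, 0.296 and 0.127 CPM in WT, or 20, 12 and 10 counts in HET against 3, 9 and 4 in WT. Its groups did not overlap, and it did not pass (log2 fold change 1.47, SE 0.56, adjusted p 0.236). The 10 choroid plexus markers summed to 38.7 to 56.3 CPM in HET hippocampus against 36.9 to 47.1 CPM in WT hippocampus. The 12 endothelial and pericyte markers summed to 178 to 204 CPM in HET hippocampus, against 249.6 to 264 CPM in WT hippocampus, with 3 of 12 lower past the test; their part was not tested. Dio3 stood at 0.467, 0.173 and 0.0695 CPM in HET and 1.45, 0.296 and 0.507 CPM in WT (log2 fold change -1.65, SE 0.73, adjusted p 0.311). Inpp5f, Copg2 and Igf2r had log2 fold changes of 0.14, 0.13 and -0.15, with adjusted p of 0.252, 0.259 and 0.284. Peg12 and the rest of the Prader-Willi and Angelman domain, which lies 10.96 to 14.12 Mb (GRCm38) from Chd2 on the same chromosome, had adjusted p of 0.435 or more.

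In MGE the lowest p values belonged to Kcnk9, at 0.463, 0.4198 and 0.647 CPM in HET and 0.227, 0.197 and 0.162 CPM in WT (log2 fold change 1.36, SE 0.45, adjusted p 0.98), and to Igf2, at 24.1, 26.6 and 27.8 CPM in HET and 28.7, 39.5 and 35.2 CPM in WT (log2 fold change -0.40, SE 0.13, adjusted p 0.98). Neither pair of groups overlapped, and both sit beside the Y-linked difference of these libraries. Igf2r and Cdkn1c among the higher genes and Rian and Dlk1 among the lower followed, with log2 fold changes of 0.25, 0.21, -0.31 and -0.39 and adjusted p of 0.98 in each case.

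In cortex the lowest p values belonged to Gnas, at 1187, 1055 and 953 CPM in HET and 856, 882 and 840.3 CPM in WT (log2 fold change 0.32, SE 0.11, adjusted p 0.578), and Zim1, at 1.66, 1.35 and 1.81 CPM in HET and 2.29, 2.36 and 3.26 CPM in WT (log2 fold change -0.70, SE 0.27, adjusted p 0.578). Peg10 and Trappc9 on the higher side and Inpp5f and Ube3a on the lower side had log2 fold changes of 0.34, 0.18, -0.36 and -0.27 with an adjusted p of 0.578 each. The HET libraries split: in 24 of 36 tested members (66.7%, against 54.0% of all genes) HET 1 and HET 2 both lay above or both lay below HET 3 and all WT libraries. Nap1l5, for one, stood at 6.91, 4.71 and 14.8 CPM in HET 1, 2 and 3, against 13.03, 13.8 and 16.9 CPM in WT. Plagl1 stood at 358, 397 and 217 CPM in HET 1, 2 and 3, against 230.2, 281 and 249 CPM in WT. Without cortex HET 3, 16 of 36 members passed (44.4%, where 30.7% of all genes did), 8 higher in HET (Peg12, Magel2, Plagl1, Peg10, Grb10, Peg3, Igf2r and Gnas) and 8 lower (Nap1l5, Meg3, Inpp5f, Sgce, Usp29, Peg13, Copg2 and Nnat). Without cortex HET 1 and HET 2, 0 passed, Peg10 changed direction (log2 fold change -0.086) and the lone HET library was assumed to vary like the WT group. These 2 libraries are also those with the lowest neuron and the highest progenitor marker sums; the part of cell composition was not tested.

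**Figure D5:**
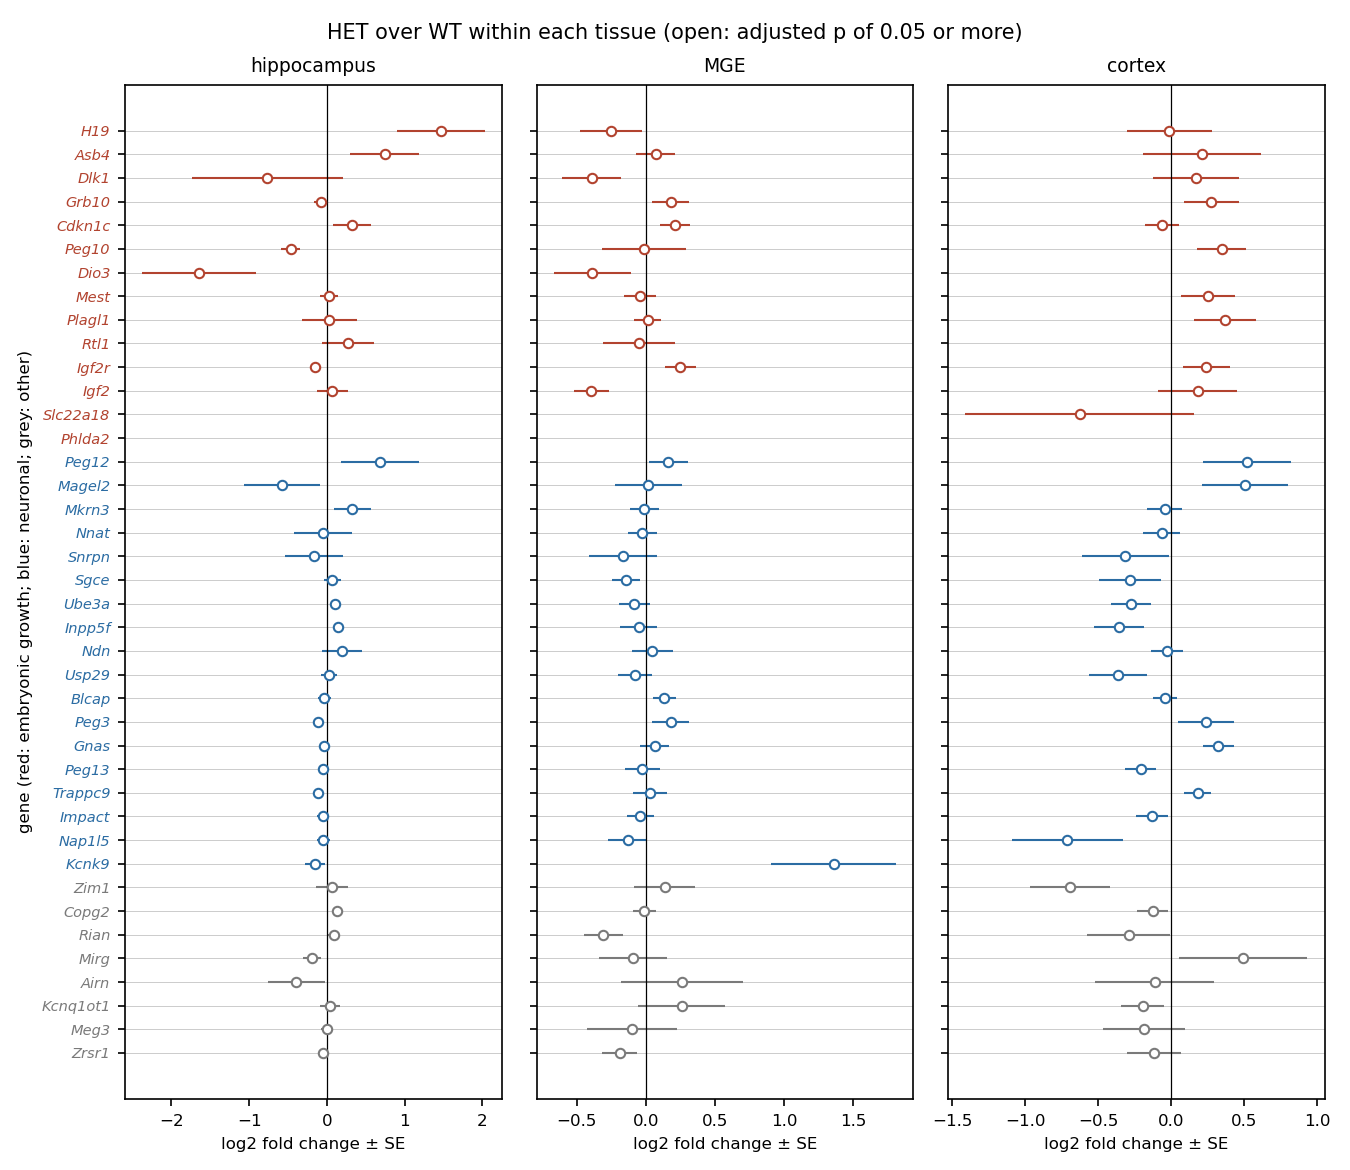
HET over WT log2 fold changes ± SE of the tested imprinted genes in hippocampus, MGE and cortex, each panel with its own scale; open points did not pass the test, and none passed. The largest sizes belong to genes with few counts, such as H19 and Dio3 in hippocampus and Kcnk9 in MGE.

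The genotype effect of no member differed between tissues past the threshold. Of 39 tested, 0 passed for hippocampus against cortex, hippocampus against MGE and MGE against cortex, where 0.0124, 0.0062 and 0% of 16125 genes did, and DESeq2 and limma-voom called 0 as well. At an unadjusted p under 0.05 were 8, 2 and 1 members (20.5, 5.13 and 2.56%), where 12.8, 7.36 and 7.01% of all genes were. The lowest p values belonged to Gnas and Inpp5f for hippocampus minus cortex (adjusted p 0.334 and 0.35), Kcnk9 and Igf2r for hippocampus minus MGE (adjusted p 0.59 and 0.656), and Zim1 and Gnas for MGE minus cortex (adjusted p 0.71 and 0.729). Without cortex HET 3, 9 members (23.1%) passed for hippocampus minus cortex, where 17.1% of all genes did, and 2 (5.13%) for MGE minus cortex, where 6.4% did. The 9 include Gnas and Inpp5f.

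Libraries of 1 group also differed among themselves. Ranked among genes of similar CPM, the SD of the median member over 3 libraries stood at percentile 51.4 in HET hippocampus, 74.1 in WT hippocampus, 69.1 in HET MGE, 72.1 in WT MGE, 73.9 in HET cortex and 72.1 in WT cortex, as a description of these libraries. Between 7 and 12 of 39 members ranked above percentile 90, depending on the group.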

How the data were processed

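NEBNext Ultra libraries were made from poly(A)-selected RNA, per the labels' protocols. The authors deposited raw counts for each gene symbol, not normalized. TopHat2 2.1.1 and the build mm10 stand in the submitters' processing notes; the program that counted, its annotation and its strand setting were not stated. A count of 2 was more frequent than a count of 1 (2.90 against 1.32% of values), so counts may not be of single fragments. The exact interval of the Slc22a18 ratio covers counting error only and takes each count as a separate fragment.

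Counts were tested with edgeR 4.0.16 in R 4.3.3 (filterByExpr with minimum count 10 and minimum total 15, TMM, robust quasi-likelihood F test, Benjamini-Hochberg adjustment over all genes, threshold 0.05). Genotype was tested within each tissue, tissue within each genotype (9 libraries) and interactions on all 18. The SE is the absolute log2 fold change over the square root of F. Intervals of log2 fold changes are 1.96 SE to either side, a normal quantile that makes them narrower than 95% intervals from the F test. The procedure was tested on simulated data. Exon lengths are from GENCODE M21.

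The 40 members, their classes and all lists were chosen with earlier results of these data known. Genes past the threshold were named by size (5 in each direction between tissues); where none passed, the 3 (for interactions 2) with the lowest p were named. Tried as alternatives: other scaling (RLE, upper quartile), all genes unfiltered, DESeq2 1.42.0, limma-voom (limma 3.58.1), a joint fit, the replicate block, Y-linked level as a term, and each library left out. Leaving out cortex HET 1 and HET 2 together was added after seeing the data.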

Additional observations from a re-analysis of the deposited data

How the results depend on the processing

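Between tissues, the count of members past the threshold stayed within 1.5 times the main count under every alternative run, and no member called in the main analysis changed direction. Calls were lost under at least 1 alternative for Dio3 and Snrpn (WT hippocampus over cortex), Peg3 and Zim1 (WT hippocampus over MGE), H19 and Grb10 (WT MGE over cortex), Snrpn, Rian with Inpp5f, and Kcnk9 (the same in HET). H19 also lost its call with upper-quartile scaling, no filter, DESeq2 and the replicate block (adjusted p 0.0655 to 0.0989). Leaving out 1 library at a time gave 31 to 33 (WT hippocampus over cortex), 32 to 34 (WT hippocampus over MGE), 25 to 28 (WT MGE over cortex), 30 to 32, 32 and 22 to 27 (the same in HET). Between genotypes, the alternatives kept 0 calls with these exceptions. DESeq2 called 1 member in hippocampus (Peg10, adjusted p 0.0344). Leaving out 1 library gave 0 to 16 in cortex (16 without cortex HET 3), 0 to 1 in hippocampus (1 without hippocampus WT 1), 0 in MGE, and 0 to 9, 0 and 0 to 2 in the interactions of hippocampus minus cortex, hippocampus minus MGE and MGE minus cortex (9 and 2 without cortex HET 3). Values that reversed had not passed in the main analysis: Peg10 in cortex (-0.086, adjusted p 0.971, without HET 1 and HET 2), Inpp5f in HET hippocampus over cortex (0.0012 with RLE scaling, 0.0013 with DESeq2, 0.13 without cortex HET 3, in a leave-one-out range of -0.24 to 0.13), Airn in HET hippocampus over MGE (0.14 without MGE HET 1, 0.034 without hippocampus HET 3, range -0.41 to 0.14) and Grb10 in HET MGE over cortex (-0.018 without cortex HET 3, range -0.018 to 0.30). The cause was not tested. Of 3026 gene-level values under an alternative, 2945 kept direction and side of the threshold, 47 lost the call, 27 passed where the main analysis had not and 7 reversed. These cover members called in either genotype for a tissue pair, the named genes, Igf2, Mirg and Airn. RLE scaling moved member group means by a median of 0.037 on the log2 scale.

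Replicate numbers did not pair the libraries (correlations of same-numbered deviations -0.20 to 0.21, with not every pair above 0.1 in any comparison). With the replicate block 0 members passed in each genotype comparison and each interaction, 33, 34 and 27 between WT tissues and 31, 34 and 24 between HET tissues, in the order given above. A covariate for Y-linked level could not be fitted in MGE, where its correlation with genotype was 0.9998. Depth limits Phlda2, Slc22a18, Dio3, Rtl1 and Kcnk9, which had too few counts for a test in at least 1 comparison.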
